A study of Homo sapiens with 18 samples.

Results

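The thioredoxin system, its inhibitor TXNIP and the arrestin-domain relatives of TXNIP were followed in U87MG glioblastoma cells with and without Erastin. The genes were TXN, TXN2, TXNL1, TXNRD1, TXNRD2, TXNRD3, SRXN1, TXNIP, ARRDC4 and ARRDC3, which are 10 of the 58302 genes of the count table and were found there by Ensembl identifier. All 10 had enough counts to enter the fit, which covered 16751 genes. They were chosen by symbol from the measured changes between these same libraries, so their fold changes are given here as a description and no p-value is printed for them. Where the thresholds of the fit are applied to them below, the calls are likewise a description and no test of these genes.

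U87MG is an established human glioblastoma line, so every library comes from 1 line. Total RNA was sequenced from 2 biological replicates grown under normal conditions (control 1 and 2) and from 2 replicates given Erastin at 10 μM for 72 h (Erastin 1 and 2). Ferroptosis, an iron-dependent death with lipid peroxidation, sets in when the small molecule Erastin keeps cells from taking up cystine. The sample titles call the control cells WT and name no genotype for the Erastin-treated cells. The control label names no vehicle.

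Thioredoxins are small proteins whose pair of active-site cysteines reduces disulfides in other proteins, among them peroxiredoxins and ribonucleotide reductase. The oxidized thioredoxin is reduced again by thioredoxin reductases, which are selenoproteins that draw electrons from NADPH. TXNIP is an alpha-arrestin that binds reduced thioredoxin and inhibits it, and it also lowers glucose uptake, while its own gene is switched on by the glucose-sensing MondoA and ChREBP factors with their partner MLX. Genes of thioredoxin and its reductase are known targets of NRF2, a transcription factor that binds antioxidant response elements.

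In Erastin-treated cells TXNIP was 9.88-fold higher, TXNRD1 4.10-fold, SRXN1 3.99-fold and ARRDC4 3.12-fold higher than in control cells. TXNRD2, TXN and TXNL1 were higher by smaller amounts, TXN2 and TXNRD3 differed little, and ARRDC3 was lower. Counts on the 10 genes together made up 27123 and 27420 counts in control and 82259 and 85707 counts in Erastin libraries.

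The libraries held between 29412656 and 31513519 counts on genes, and replicates differed by a biological coefficient of variation of 10.3%. Levels are in CPM, counts relative to the total of the library after TMM, a scaling that allows for differences in composition, with factors between 0.971 and 1.02. From 29.9 to 31.4 counts correspond to 1 CPM. Both reads of a pair were counted separately, and PCR copies of 1 molecule may be counted more than once. Counting error alone is therefore too narrow a measure of precision. A gene was called higher or lower where its log2 fold change was 1 or more in size and its adjusted p was under 0.05 in the edgeR fit over all genes. With groups of 2 the smallest two-sided p of an exact permutation test is 0.333, and the p-values printed here draw instead on the variance shared across genes. Markers of glioma and mesenchymal cells (VIM, CD44, NES, FN1, TNC) had counts in every library, and their summed level was 11427 to 11756 CPM in control and 3882 to 4144 CPM in Erastin libraries. Each was lower with Erastin, and FN1 fell most in CPM, from a mean of 5192 to 496. VIM and CD44 were at 0.66 and 0.78 of their control level, short of the threshold on size. Of 6 astroglial markers AQP4 was at 0 in all 4 libraries, and the summed level was 59.4 to 61.4 CPM in control and 14.9 to 15.1 CPM in Erastin libraries, most of it from SLC1A3. GFAP went the other way, with 46 and 41 counts in control and 69 and 81 in Erastin libraries. OLIG2 had 88 and 79 counts in control and 67 and 59 in Erastin libraries. S100B and SOX2 had at most 6 counts in a library. The 3 neuronal markers, of which SNAP25 and SYT1 made up nearly all counts, summed to 52.6 to 57.4 CPM and to 12.9 CPM. The 3 endothelial markers, mainly PECAM1, summed to 4.64 to 6.18 CPM and to 1.64 to 2.07 CPM. Among them VWF went the other way, with 4 and 4 counts in control and 17 and 32 in Erastin libraries, and CDH5 had at most 1 count. The 4 immune markers, with CD3E and AIF1 at 0, and the 2 epithelial markers, with CDH1 at 0, stayed at or under 0.468 CPM in every library. The part of these classes in the results was not tested. The summed level of 6 genes of dividing cells was 1071 to 1101 CPM in control and 179 to 180.0 CPM in Erastin libraries, with all 6 genes lower. In RNA from whole cultures, fewer cells of a type and less RNA per cell cannot be told apart.

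Promoter sequences of RefSeq (build GRCh38.p14, 250 bases before to 50 bases after each transcription start) were at hand for 9 of the 10 genes, in 14 windows, and TXN2 had none. They were searched on both strands for 4 short motifs. One was a pair of CACGNG copies with 5 bases between them, the form of the element through which MondoA and ChREBP bind, and another was the single E-box CACGTG, which is itself one form of CACGNG. The others were TGACNNNGC, the core of the antioxidant response element, and TGATGNAA, an element of the amino acid response. The windows with a match in the genes of the largest changes are printed here, in lower case from 5′ to 3′ on the strand of the gene, with the match in capitals.

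TXNIP, chr1:145996530-145996829, minus strand: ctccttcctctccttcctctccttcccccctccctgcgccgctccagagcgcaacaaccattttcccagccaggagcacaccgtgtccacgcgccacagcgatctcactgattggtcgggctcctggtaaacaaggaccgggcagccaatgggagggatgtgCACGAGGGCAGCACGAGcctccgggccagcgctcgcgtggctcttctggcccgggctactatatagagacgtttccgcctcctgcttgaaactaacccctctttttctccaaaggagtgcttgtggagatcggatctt
ARRDC4, chr15:97960453-97960752, plus strand: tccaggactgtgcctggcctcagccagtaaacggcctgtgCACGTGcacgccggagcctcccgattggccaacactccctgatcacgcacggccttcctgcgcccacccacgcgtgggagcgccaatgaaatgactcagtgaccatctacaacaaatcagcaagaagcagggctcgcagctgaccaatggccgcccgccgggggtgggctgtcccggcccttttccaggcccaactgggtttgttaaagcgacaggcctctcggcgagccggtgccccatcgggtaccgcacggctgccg
TXNRD1 at the start of the gene, chr12:104215529-104215828, plus strand: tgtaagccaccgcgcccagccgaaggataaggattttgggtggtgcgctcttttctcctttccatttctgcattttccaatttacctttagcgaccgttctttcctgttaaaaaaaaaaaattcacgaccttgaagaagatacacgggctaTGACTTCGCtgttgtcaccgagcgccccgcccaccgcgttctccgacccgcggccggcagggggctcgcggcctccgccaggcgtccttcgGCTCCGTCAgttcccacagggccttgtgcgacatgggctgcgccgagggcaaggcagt
TXNRD1 at an internal start, chr12:104286782-104287081, plus strand: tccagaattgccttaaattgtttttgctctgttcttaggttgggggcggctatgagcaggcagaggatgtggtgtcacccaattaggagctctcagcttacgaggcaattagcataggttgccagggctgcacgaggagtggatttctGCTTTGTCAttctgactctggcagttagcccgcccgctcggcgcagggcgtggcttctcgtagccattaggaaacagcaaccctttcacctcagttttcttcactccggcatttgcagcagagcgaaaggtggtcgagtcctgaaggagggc

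The TXNIP window carried the CACGNG pair with its first base at position −88 from the start, a match found in 20 of the 35116 windows of the table (0.057%). ARRDC4 carried a CACGTG at position −210, as did 7.26% of all windows. In TXNRD1 the core TGACNNNGC lay at −99 and, on the other strand, at −8 of the first window. The window 71253 bases downstream held another at −102, also on the other strand. TXNL1 had 1 match of the same core at −9, and 13.3% of all windows held at least 1. No window of these genes held TGATGNAA, which 3.62% of all windows did. The second TXNIP window and the windows of ARRDC3, TXN, TXNRD2, TXNRD3 and SRXN1 held none of the 4 motifs. A match is a run of letters, and binding was not measured in the data used here.

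**Figure D1:**
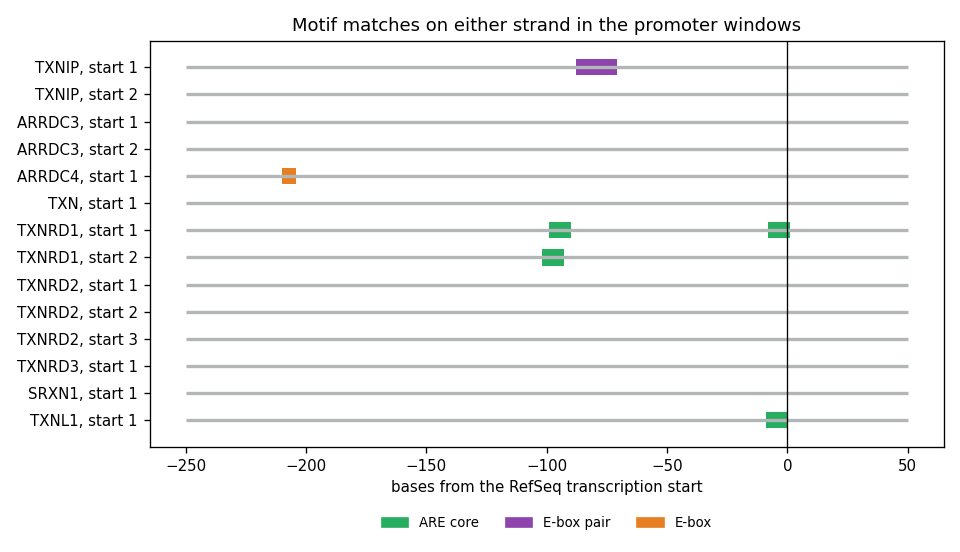
Each grey line is 1 promoter window, drawn by distance in bases from its RefSeq transcription start (0), and coloured boxes are motif matches on either strand. Matches appear in TXNIP at −88 (E-box pair), in ARRDC4 at −210 (E-box), in TXNRD1 at −99, −8 and −102 and in TXNL1 at −9 (ARE core), and the other 9 windows are empty.

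TXN (ENSG00000136810, chromosome 9 of GRCh38 from 110243811 to 110256640, minus strand) encodes the thioredoxin of cytosol and nucleus. It had 6725 and 7508 counts in control and 11047 and 10729 in Erastin libraries. Its level was 231 ± 15.4 CPM (SD, n = 2) without and 355 ± 19.7 CPM (SD, n = 2) with Erastin, which is 1.54-fold and a log2 fold change of 0.62 (standard error 0.0726). Each Erastin library exceeded each control library, and the change stayed under the threshold on size. Of all genes fitted, 36.7% were separated upward in this way and 36.9% downward, which also applies to the single genes below. Of the 31-base words of the TXN transcript, 161 of 707 (22.8%) recur elsewhere on the chromosomes. Counting left out reads with several places, and how many TXN reads this removed was not measured.

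TXN2 (ENSG00000100348, chromosome 22 from 36467036 to 36482030, minus strand) encodes the mitochondrial thioredoxin. Its counts were 2610 and 2604 in control and 2773 and 2856 in Erastin libraries. Levels were 84.6 ± 1.08 CPM (SD, n = 2) without and 91.8 ± 1.28 CPM (SD, n = 2) with Erastin, and the log2 fold change was 0.12 (standard error 0.0692), within 2 standard errors of 0. The TXN to TXN2 ratio of CPM per kb of exon was 4.63 and 5.18 in control and 7.15 and 6.74 in Erastin libraries. The cytosolic form was thus the more abundant transcript of the pair per length in all 4 libraries, by a wider margin under Erastin.

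TXNL1 (ENSG00000091164, chromosome 18 from 56597208 to 56651600, minus strand) encodes a protein with a thioredoxin domain that associates with the proteasome. Counts were 2218 and 2125 in control and 2408 and 2861 in Erastin libraries, or 70.5 ± 2.92 CPM (SD, n = 2) without and 85.8 ± 7.46 CPM (SD, n = 2) with Erastin. The groups did not overlap, and the log2 fold change was 0.28 (standard error 0.0814). Without Erastin replicate 2 it was 0.19, and the gene then no longer passed the adjusted p of the fit.

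**Figure D2:**
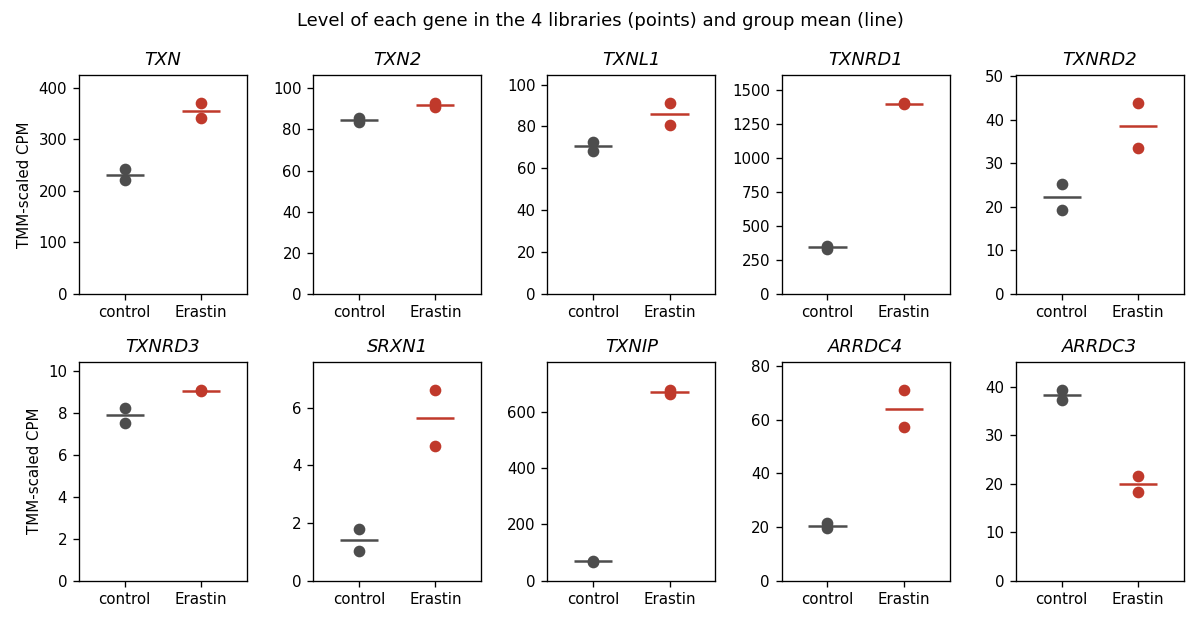
Each panel shows 1 gene, with the 4 libraries as points (control grey, Erastin red), the group mean as a line and TMM-scaled CPM on a linear axis from 0. For 9 genes both Erastin points lie above both control points, for ARRDC3 both lie below, and TXNIP and TXNRD1 have the widest gaps relative to the spread of their replicates. Of all genes fitted, 36.7% were separated upward and 36.9% downward.

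TXNRD1 (ENSG00000198431, chromosome 12 from 104215779 to 104350305, plus strand) encodes the cytosolic thioredoxin reductase. It had 10668 and 10341 counts in control and 41758 and 44044 counts in Erastin libraries, a log2 fold change of 2.04 (standard error 0.0645). By CPM per kb, TXNRD1 was number 710 and 726 of the 16751 genes in control and number 102 and 105 in Erastin libraries. TXNRD2 (ENSG00000184470, chromosome 22 from 19875517 to 19941992, minus strand) encodes the mitochondrial reductase. Its counts were 770 and 599 in control and 1310 and 1050 in Erastin libraries. Levels were 22.2 ± 4.17 CPM (SD, n = 2) without and 38.6 ± 7.34 CPM (SD, n = 2) with Erastin, with a log2 fold change of 0.80 (standard error 0.152). The groups did not overlap, but the replicates of each group lay far apart. Leaving out 1 library at a time gave log2 fold changes from 0.587 to 0.998, all short of the threshold on size.

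TXNRD3 (ENSG00000197763, chromosome 3 from 126607052 to 126655155, minus strand) encodes a reductase that also carries a glutaredoxin domain and is known from testis. It had 229 and 256 counts in control and 270 and 285 counts in Erastin libraries. Its log2 fold change of 0.20 was hardly larger than its standard error of 0.166. Of the summed CPM per kb of the 3 reductases, TXNRD1 made up 90.5% and 90.8% in control and 96.2% and 96.8% in Erastin libraries. The TXN to TXNRD1 ratio of CPM per kb was 3.70 and 4.26 in control and 1.55 and 1.43 in Erastin libraries. The 2 groups of libraries did not overlap in either quantity, and thioredoxin mRNA stayed more abundant per length than that of its cytosolic reductase.

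SRXN1 (ENSG00000271303, chromosome 20 from 646615 to 653370, minus strand) encodes sulfiredoxin, which reduces overoxidized peroxiredoxins. It had the fewest counts of the 10 genes, with 55 and 32 in control and 198 and 147 in Erastin libraries. Levels were 1.41 ± 0.544 CPM (SD, n = 2) without and 5.65 ± 1.37 CPM (SD, n = 2) with Erastin, with a log2 fold change of 2.00 (standard error 0.325). The Erastin libraries lay above the control libraries, and over the 4 fits that each drop 1 library the log2 fold change ran from 1.64 to 2.45. In the annotation used for counting, 2292 of its 2698 exon bases (85.0%) are shared with ENSG00000270299 on the same strand, and reads on the shared part were assigned to neither gene. The counts of SRXN1 therefore come mainly from the remaining 406 bases. Per kb of those bases its level was 4.43 and 2.54 CPM in control and 16.3 and 11.5 CPM in Erastin libraries, against 0.667 and 0.382 CPM and 2.45 and 1.73 CPM per kb of all exon bases.

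TXNIP (ENSG00000265972, chromosome 1 from 145992435 to 145996600, minus strand) had 2052 and 2127 counts in control and 19823 and 21260 counts in Erastin libraries. Its level was 67.8 ± 0.962 CPM (SD, n = 2) without and 669.7 ± 9.82 CPM (SD, n = 2) with Erastin. The log2 fold change of 3.30 (standard error 0.0685) was number 118 of the 16751 genes when they were ordered from the largest rise down. No other gene of the annotation overlaps TXNIP, and none of its 31-base words recurs elsewhere. By CPM per kb it was number 2522 and 2414 of all genes fitted in control and number 124 and 118 in Erastin libraries. The TXNIP to TXN ratio of CPM per kb was 0.0961 and 0.0892 in control and 0.565 and 0.624 in Erastin libraries, so mRNA of the inhibitor remained below that of its target in every library while the gap between them narrowed.

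ARRDC4 (ENSG00000140450, chromosome 15 from 97960698 to 97973838, plus strand) encodes an alpha-arrestin close to TXNIP in sequence. Its counts were 595 and 673 in control and 2128 and 1800 in Erastin libraries. Levels were 20.6 ± 1.56 CPM (SD, n = 2) without and 64.2 ± 9.80 CPM (SD, n = 2) with Erastin, a log2 fold change of 1.64 (standard error 0.117). ARRDC3 (ENSG00000113369, chromosome 5 from 91368724 to 91383359, minus strand) encodes an alpha-arrestin that links membrane receptors to ubiquitin ligases. It had 1201 and 1155 counts in control and 544 and 675 counts in Erastin libraries. Levels were 38.2 ± 1.48 CPM (SD, n = 2) without and 19.8 ± 2.33 CPM (SD, n = 2) with Erastin, and the control level was 1.93 times the Erastin level.

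The log2 fold change of ARRDC3 was −0.95 (standard error 0.114), just short of the threshold on size. Without Erastin replicate 2 it was −1.07 and passed both thresholds. ARRDC3 and ARRDC4 therefore moved in opposite directions with no overlap between groups in either. Their ratio of CPM per kb was 1.67 and 1.42 in control and 0.211 and 0.309 in Erastin libraries, so ARRDC3 was the more abundant of the pair in control and the less abundant in Erastin-treated cells. TXNIP exceeded ARRDC4 by 3.87 and 3.55 times in CPM per kb in control and by 10.5 and 13.3 times in Erastin libraries. On the opposite strand ARRDC3-AS1 shares 145 exon bases (2.94%) with ARRDC3 and had 37 and 9 counts in control and 34 and 37 counts in Erastin libraries. Counting ignored strand, so reads on the shared bases went to neither gene.

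**Figure D3:**
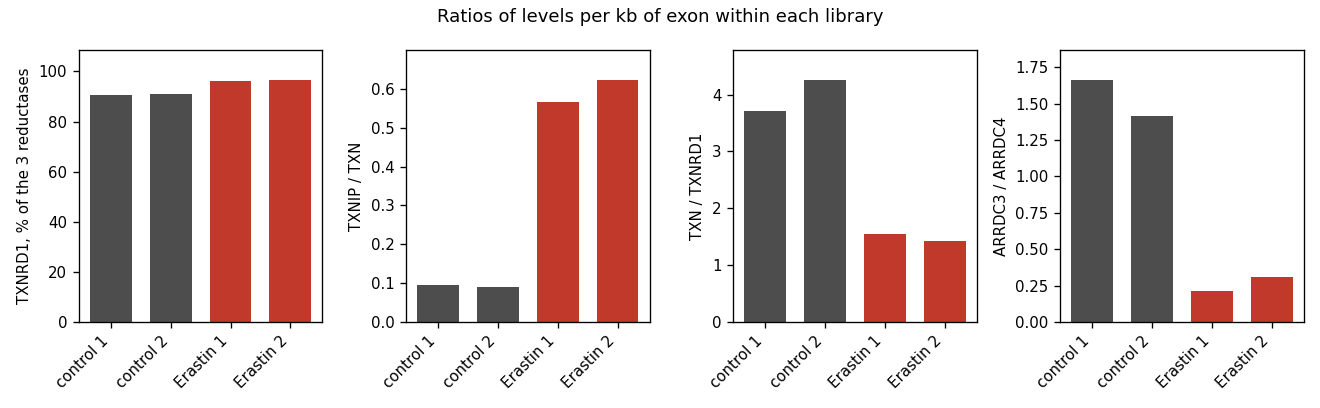
Bars give 4 ratios of CPM per kb of exon in each library (control grey, Erastin red), on linear axes from 0. The share of TXNRD1 is above 90% in all 4 libraries, TXNIP over TXN is under 0.1 in both control libraries and above 0.5 in both Erastin libraries, and both other ratios are lower with Erastin.

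Of the 10 genes, TXNIP, TXNRD1, SRXN1 and ARRDC4 were called higher and 0 were called lower in Erastin-treated cells, where 6.24% of all genes fitted were called higher and 9.34% lower. DESeq2 called 4 and 0 as well. With the adjusted p alone, or an unadjusted p under 0.05, 7 were higher and 1 was lower in edgeR, and TXN2 and TXNRD3 did not pass. Of all genes, 23.2% were higher and 23.7% lower by that rule. The Erastin libraries both exceeded the control libraries for 9 genes and both fell short of them for 1, which was so for 36.7% and 36.9% of all genes. The median log2 fold change of the 10 genes was 0.71, and that of all genes fitted was −0.0026. Since the genes were picked from this comparison, nothing is read from these shares.

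**Figure D4:**
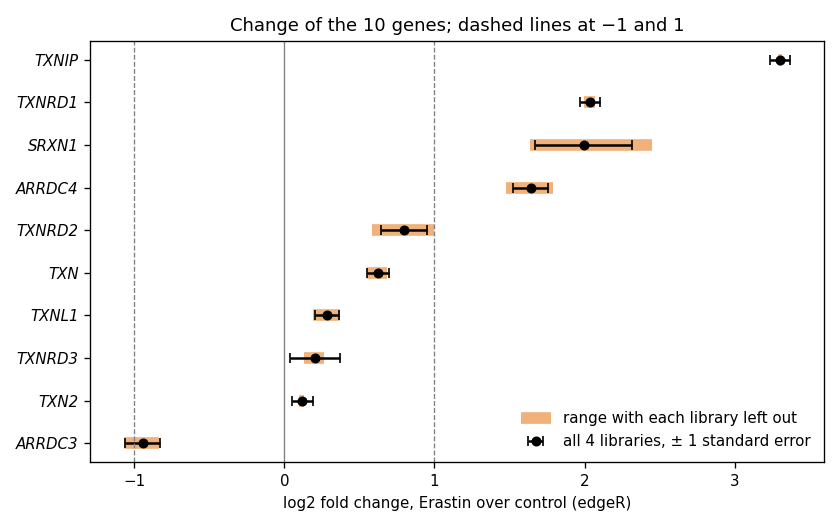
Points give the log2 fold change of each gene with 1 standard error, and orange bars the range when each library is left out in turn, with dashed lines at the thresholds of −1 and 1. TXNIP, TXNRD1, SRXN1 and ARRDC4 stay beyond 1 over their whole range, and only the range of ARRDC3, from −1.07 to −0.83, crosses a threshold.

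In CPM per kb of exon, the order in control cells was TXN (193 and 212), TXNRD1 (52.0 and 49.6), TXN2 (41.6 and 40.9), TXNIP (18.5 and 18.9), ARRDC3 (7.96 and 7.54), TXNL1 (6.42 and 6.05), ARRDC4 (4.78 and 5.32), TXNRD2 (3.01 and 2.30), TXNRD3 (2.45 and 2.70) and SRXN1. Neighbours in this order did not overlap, with the exception of TXNRD2 and TXNRD3. In Erastin-treated cells TXN was still first (323 and 299), followed by TXNRD1 (208 and 209) and TXNIP (183 and 187), and ARRDC4 (17.5 and 14.1) stood directly after TXN2 (45.2 and 44.3). TXNL1 (7.13 and 8.06), TXNRD2 (5.23 and 3.99), ARRDC3 (3.69 and 4.35), TXNRD3 (2.95 and 2.97) and SRXN1 followed, and only TXNRD2 and ARRDC3 overlapped there. TXNIP moved from the fourth to the third place, which also held with canonical transcript lengths and with unshared exon bases. ARRDC3 moved from the fifth to the eighth place, but from the seventh to the eighth with canonical lengths and from the fifth to place 9 per unshared base. SRXN1 was last in both groups per exon length. Per unshared base it took the eighth place in control, where it overlapped TXNRD3 and TXNRD2. In Erastin-treated cells it took the sixth place per unshared base, where it overlapped ARRDC4. The place of TXNRD2 also depends on the length, because its exons cover 8373 bases while the canonical transcript has 1941. With canonical lengths it took the fifth place in both groups, at 13.0 and 9.93 CPM per kb in control and 22.6 and 17.2 in Erastin libraries.

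Genes near or on the others could share reads with them. EID3 and the pseudogene RPL18AP3 lie inside the span of TXNRD1 without sharing an exon base with it. WDR7 shares 234 bases (2.07%) with TXNL1 on the opposite strand. ENSG00000283374 shares 380 bases (12.4%) with TXNRD3 on the same strand and had 0 counts in all libraries. Apart from TXN, the share of recurring 31-base words was highest in TXNL1 (5.54%) and TXN2 (4.90%), and TXNL1 had a further 3.33% on scaffolds outside the chromosomes.

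Other genes of the pathway were taken from 8 lists of 74 genes, of which 72 were fitted, and their p-values are adjusted over all genes in edgeR's quasi-likelihood test. Of these genes 9 (12.5%) were called higher and 5 (6.94%) lower, beside 6.24% and 9.34% of all genes. With the adjusted p alone 34 (47.2%) were higher and 17 (23.6%) lower, beside 23.2% and 23.7% of all genes. Their median log2 fold change was 0.22. Where a list below had 0 calls in a direction, DESeq2 called 0 as well. At an unadjusted p under 0.05 in edgeR, the number passing in such a direction was that given for the adjusted p alone, with 2 exceptions: 3 thioredoxin-like genes and 5 selenocysteine genes were then higher.

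The list with most called genes was that of the NRF2 axis, made up of NRF2, its repressors, its MAF partners and their targets. Of 16 genes, 7 (43.8%) were called higher and 0 lower, beside 6.24% and 9.34% of all genes. With the adjusted p alone 15 (93.8%) were higher and 1 (6.25%) lower, beside 23.2% and 23.7% of all genes. The median log2 fold change was 0.95. The 7 include KEAP1, a repressor of NRF2 (log2 fold change 1.18), and the 15 also include the repressor BACH1 (0.24). The 1 lower gene was TKT (−0.64), counted among the targets. KEAP1, BACH1 and TKT were named after their values were seen. Since this list, like the others, was written with earlier results of these data known, nothing is read from its shares. SLC7A11, the cystine transporter that Erastin blocks, HMOX1, a heme-degrading enzyme, OSGIN1, a growth inhibitor, and FTL, the ferritin light chain, had the largest log2 fold changes of 3.67, 3.36, 2.88 and 1.97. OSGIN1 had 455 and 460 counts in control and 3261 and 3422 in Erastin libraries (edgeR, adjusted p = 3.98e-10). TXNRD1 and SRXN1 had log2 fold changes of 2.04 and 2.00 (standard errors 0.0645 and 0.325), and a part of NRF2 in them was not tested.

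Of 13 thioredoxin clients, 1 (7.69%) was called higher and 2 (15.4%) lower, and 3 (23.1%) and 5 (38.5%) passed the adjusted p alone in each direction. Of all genes, 6.24% were called higher and 9.34% lower, and 23.2% and 23.7% passed the adjusted p alone. The shares higher by either rule were near those of all genes, and the median log2 fold change was 0.04. RRM2B, the p53-induced small subunit of ribonucleotide reductase, rose from 3171 and 3105 to 8810 and 9593 counts (log2 fold change 1.56, edgeR adjusted p = 6.12e-09). RRM2, the small subunit used in S phase, fell from 1849 and 1973 to 720 and 668 counts (log2 fold change −1.45, edgeR adjusted p = 2.60e-07). The replicates of both genes lay close together next to the difference. RRM2 fell beside the genes of dividing cells, whose values are given above, and their part in it was not tested. MAP3K5, the kinase ASK1 that reduced thioredoxin holds inactive, fell from 319 and 375 to 120 and 128 counts (log2 fold change −1.48, edgeR adjusted p = 4.00e-05). Among the peroxiredoxins, named after their values were seen, PRDX1 rose by 0.41 and PRDX5 by 0.52 on the log2 scale and PRDX4 fell by 0.60, all below the threshold on size. PRDX2 and PRDX3 had log2 fold changes of −0.15 and 0.16 and did not pass the adjusted p.

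The proteins with a thioredoxin fold in the list of thioredoxin-like proteins showed 0 called higher and 1 (9.09%) lower among 11 fitted genes. For all genes the shares were 6.24% and 9.34%. The median log2 fold change of the 11 genes was −0.013. The called gene was TXNDC16, with 189 and 182 counts in control and 63 and 64 in Erastin libraries (log2 fold change −1.54, edgeR adjusted p = 0.000239). Without the threshold on size 2 (18.2%) were higher and 4 (36.4%) lower, beside 23.2% and 23.7% of all genes. The twelfth gene, NXN, had at most 6 counts in a library and was not fitted.

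In the glutaredoxin arm, which reduces disulfides with glutathione, 1 of 5 genes (20%) was called higher and 0 lower. For all genes the shares were 6.24% and 9.34%. The median log2 fold change of the 5 genes was 0.24. Without the threshold on size 3 (60%) were higher and 1 (20%) lower, beside 23.2% and 23.7% of all genes. GLRX2, the mitochondrial glutaredoxin, rose from 228 and 252 to 516 and 568 counts (log2 fold change 1.18, edgeR adjusted p = 2.96e-05). GLRX rose by 0.40 and GSR, glutathione reductase, by 0.24 on the log2 scale, and GLRX5, of iron-sulfur cluster assembly, fell by 0.46, all below the threshold on size. GLRX3 had a log2 fold change of 0.06 and did not pass.

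The remaining arrestin-domain genes ARRDC1 and ARRDC2 had log2 fold changes of 0.20 and 0.03 with edgeR adjusted p of 0.180 and 0.897, and ARRDC5 had at most 5 counts in a library and was not fitted. ARRDC1 had 693 and 663 counts in control and 794 and 750 in Erastin libraries, and ARRDC2 had 417 and 482 in control and 441 and 469 in Erastin libraries. Whether their changes differ from that of ARRDC4 was not tested.

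Of 11 regulators and partners of TXNIP, 0 were called higher and 1 (9.09%) lower, beside 6.24% and 9.34% of all genes. With the adjusted p alone 5 (45.5%) were higher and 4 (36.4%) lower, beside 23.2% and 23.7% of all genes. The median log2 fold change of the 11 genes was 0.07. MLXIPL, which encodes ChREBP, fell from 110 and 151 to 48 and 57 counts (log2 fold change −1.30, edgeR adjusted p = 0.00297). The related MLXIP, which encodes MondoA, and MLX, the partner of both, were named after their values were seen. MLXIP had a log2 fold change of 0.41 (edgeR adjusted p = 0.0352), short of the threshold on size, and MLX had a log2 fold change of 0.07 (adjusted p = 0.534). The others passing the adjusted p alone, also named afterwards, were SLC2A1 (0.88), DDIT4 (0.87), FOXO3 (0.40) and ITCH (0.38) upward. Downward they were NLRP3 (−0.69), FOXO1 (−0.62) and PRKAA2 (−0.59).

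Genes that supply NADPH, the electron donor of the reductases, showed 0 called higher and 1 (16.7%) lower among 6. For all genes the shares were 6.24% and 9.34%. The median log2 fold change of the 6 genes was 0.04. Without the threshold on size 2 (33.3%) were higher and 1 (16.7%) lower, beside 23.2% and 23.7% of all genes. IDH2, the mitochondrial isocitrate dehydrogenase, fell from 2215 and 1934 to 857 and 779 counts (log2 fold change −1.33, edgeR adjusted p = 1.05e-06). PGD, of the pentose phosphate pathway, rose by 0.64 and IDH1 by 0.25 on the log2 scale, neither reaching the threshold on size.

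Of 8 genes that build selenocysteine into proteins such as the reductases, 0 were called in either direction. For all genes the shares were 6.24% higher and 9.34% lower. With the adjusted p alone 4 (50%) were higher and 1 (12.5%) lower, beside 23.2% and 23.7% of all genes. The median log2 fold change of the 8 genes was 0.39. PSTK, the kinase that prepares the selenocysteine tRNA, was the largest, with 150 and 144 counts in control and 280 and 285 in Erastin libraries (log2 fold change 0.95, edgeR adjusted p = 0.00109). SECISBP2, which recognizes the selenocysteine signal in mRNAs, rose by 0.66, and SEPHS1 fell by 0.56 on the log2 scale.

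Likeness to TXNIP and TXNRD1 was measured as the Euclidean distance between log2 CPM values, centred on each gene's mean over the 4 libraries, among the 9494 genes whose mean reached 10 CPM. The genes nearest to TXNIP were TP53I3 (distance 0.134), ATP6V1FNB (0.164) and HMOX1 (0.185). TP53I3 had 155 and 154 counts in control and 1415 and 1427 in Erastin libraries. Nearest to TXNRD1 were PPP1R15A (0.0479), FTH1P20 (0.0882) and FTL (0.0883). PPP1R15A, a phosphatase subunit of the stress response, had 1830 and 1699 counts in control and 6940 and 7458 in Erastin libraries. With 2 groups of 2 libraries, a small distance says mainly that a gene had a like fold change.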

How the data were processed

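RNA-seq of U87MG cells was performed by the authors on 2 control and 2 Erastin-treated (10 μM, 72 h) replicates. The authors deposited 1 table of raw counts, which per the file header was written by featureCounts 2.0.3 (2.0.4 in the submitters' processing notes) from Ensembl 90 gene models of GRCh38, ignoring strand and with both reads of a pair counted separately. The notes list HISAT2 2.1.0 as aligner, and the methods of the study name the same aligner. For counting, however, those methods name htseq-count. Reads on more than 1 gene or place were not counted. The deposited values were also examined as possible expected counts, and 0 of them had decimals.

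The fit used edgeR 4.0.16 under R 4.3.3 (filterByExpr, minimum count 10, TMM, quasi-likelihood test, Benjamini-Hochberg adjustment over 16751 genes, two-sided, prior degrees of freedom 9.48, standard errors derived from its F values). Thresholds were those of the study. The groups were taken from the labels, which call the replicates biological. Levels per kb used the exon length in the table. Gene symbols, canonical transcripts and repeated 31-base words came from GENCODE release 44 and the GRCh38 genome. The method was tested on simulated data. The 10 genes, the lists and the motifs were chosen with earlier results of these data known. Named list genes were those past both thresholds, up to 4 in each direction, any gene of lists of 8 or fewer, overlapping genes, 3 nearest profiles and markers. Other settings tried were library totals, RLE size factors, DESeq2 1.42.0, other filters, the replicate block, halved counts and each library left out. Lengths of canonical transcripts and of unshared exon bases were added after the data were seen. ChIP-seq and HiChIP data were not analysed here, and 2 genes covered by the rule for named genes are not reported here.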

Additional observations from a re-analysis of the deposited data

How the results depend on the processing

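Over 11 alternatives, 109 of 110 log2 fold changes of the 10 genes kept their direction and their call by both thresholds together. The exception was ARRDC3 without Erastin replicate 2, at −1.07, so that the number of the 10 genes called lower lay between 0 and 1 over the 4 leave-one-out fits, in which the lone library is assumed to vary like those of the other group. TXNL1, called under none of them, passed the adjusted p with all 4 libraries but not without Erastin replicate 2 (log2 fold change 0.19). The number called higher was 4 under all 11 alternatives. Calls over all genes moved from 1046 higher and 1564 lower to at most 1160 and 1713 without a filter and to 791 and 1341 with at least 10 counts in every library. DESeq2 called 903 and 1411. Library totals gave 1145 and 1468 and moved the median log2 fold change of all genes to 0.047. Replicate numbers are given without any statement of pairing, and control and Erastin libraries of the same number deviated from their group means with a correlation of only 0.0203 across genes. With the replicate block 1039 genes were called higher and 1568 lower, and of the 10 genes again 4 and 0. Library totals cancel within a ratio of levels, and another length scales a ratio of a pair of genes alike in all libraries, so these alternatives cannot change the order of the groups there. With canonical lengths the mean TXNIP to TXN ratio was 0.0746 in control and 0.479 in Erastin libraries, and the mean share of TXNRD1 was 86.2% and 94.0%. Depth limits SRXN1 most, with 32 counts in its lowest library, where both reads of a pair may each give a count.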
